A study of Homo sapiens with 9 samples.

Results

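The genes described here are the 611 whose coding span, from the first to the last coding base with introns included, exceeds 300 kb in PC9 cells before and after prolonged osimertinib. For each of 20435 genes the transcript with the highest mean over the 9 libraries was kept, and the genes whose span passed that length formed the class. Their median span was 441 kb, 231 exceeded 500 kb and 51 exceeded 1 Mb, and exons covered a median of 1.07% of the span in the 609 members with a GENCODE annotation. PC9 is an EGFR-mutant human lung adenocarcinoma line, and the cells carried a FUCCI4 reporter of cell cycle phase. Untreated cells (day 0) and cells kept for 28 days in 500 nM osimertinib, an inhibitor of mutant EGFR, were fixed with glyoxal, permeabilised with saponin and sorted into G1, S and G2 before poly(A) RNA was sequenced. Clones 1 and 7 were both sorted at day 0 in G1 and S and at day 28 in G1, and clone 1 alone at day 0 in G2 and at day 28 in S and G2, which gave 5 libraries at day 0 and 4 at day 28. All groups share the reporter, and day 0 stands for an untreated start, not for a vehicle control of the same duration. The libraries of 1 clone are not stated to be separate cultures, so the p-values measure the spread between these libraries, which may be technical. The markers of the labelled cell type were present: all 12 lung epithelial markers examined, keratins and claudins among them, had reads, and 11 passed the filter on low values.

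A gene of this length keeps the polymerase on its template for hours, and most of its primary transcript is intron. Long genes are enriched among those of neurons and muscle, where they encode adhesion proteins, ion channels and cytoskeletal linkers, and several coincide with common fragile sites, regions that break when replication is slowed. In epithelial cells the class also holds signalling scaffolds, transcription cofactors and enzymes that act in most cell types.

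The start regions of 6 members that differ in their levels are shown for their CpG content. They are CMSS1, the strongest member of untreated cells, WDR70, whose level did not pass the test between days, ARL15 and MAGI1, a pair of genes that rose, and CNTNAP2 and DCC, neuronal genes with few reads. Each line gives the 250 bases before the RefSeq start of the gene in GRCh38.p14, 5′ to 3′ on the strand of the gene, with CpG dinucleotides in capitals.
CMSS1: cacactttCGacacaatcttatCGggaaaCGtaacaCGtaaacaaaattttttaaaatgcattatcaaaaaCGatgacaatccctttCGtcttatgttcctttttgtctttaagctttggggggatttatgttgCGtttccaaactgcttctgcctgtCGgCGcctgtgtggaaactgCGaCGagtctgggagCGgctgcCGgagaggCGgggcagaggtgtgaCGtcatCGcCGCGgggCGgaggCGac
WDR70: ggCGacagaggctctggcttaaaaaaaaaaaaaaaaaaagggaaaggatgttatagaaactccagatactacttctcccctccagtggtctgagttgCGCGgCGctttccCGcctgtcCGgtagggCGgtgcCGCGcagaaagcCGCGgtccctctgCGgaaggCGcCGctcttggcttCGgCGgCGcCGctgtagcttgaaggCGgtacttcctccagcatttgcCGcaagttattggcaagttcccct
ARL15: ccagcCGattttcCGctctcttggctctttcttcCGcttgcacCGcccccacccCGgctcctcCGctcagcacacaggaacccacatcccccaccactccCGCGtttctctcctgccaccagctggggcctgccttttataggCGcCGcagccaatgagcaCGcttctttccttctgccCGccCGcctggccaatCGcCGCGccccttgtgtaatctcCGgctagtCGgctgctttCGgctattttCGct
MAGI1: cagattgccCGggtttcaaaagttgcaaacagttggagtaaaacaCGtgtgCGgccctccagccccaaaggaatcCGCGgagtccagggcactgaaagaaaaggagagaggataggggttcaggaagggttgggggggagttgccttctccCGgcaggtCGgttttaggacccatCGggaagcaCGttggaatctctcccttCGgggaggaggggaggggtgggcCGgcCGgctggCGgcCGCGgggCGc
CNTNAP2: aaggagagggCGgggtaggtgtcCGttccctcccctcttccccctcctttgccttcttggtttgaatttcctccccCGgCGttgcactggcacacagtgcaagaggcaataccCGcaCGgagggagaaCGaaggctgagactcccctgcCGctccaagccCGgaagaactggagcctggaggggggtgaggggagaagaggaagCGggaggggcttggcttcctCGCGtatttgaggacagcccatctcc
DCC: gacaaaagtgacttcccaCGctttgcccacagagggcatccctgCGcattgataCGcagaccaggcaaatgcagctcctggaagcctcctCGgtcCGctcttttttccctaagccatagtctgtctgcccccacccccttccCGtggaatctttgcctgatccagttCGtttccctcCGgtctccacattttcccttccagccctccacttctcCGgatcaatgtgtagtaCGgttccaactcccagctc
The windows lie at chr3:99817612-99817861 on the plus strand for CMSS1, chr5:37379068-37379317 on the plus strand for WDR70, chr5:54310574-54310823 on the minus strand for ARL15, chr3:66038919-66039168 on the minus strand for MAGI1, chr7:146116551-146116800 on the plus strand for CNTNAP2 and chr18:52339947-52340196 on the plus strand for DCC. They hold 20, 20, 20, 16, 12 and 10 CpG dinucleotides, in the same order. Over the 491 members with a RefSeq window the median was 17.0 CpG, the same as over the 15418 genes of the deposited table with a window. The 32 matched members with reads at or below the level of olfactory receptor genes at day 28, described below, had a median of 12.0, and the 261 above that level in all 4 day 28 libraries had 20. The letters GGAATG, a core of TEAD sites searched on both strands, occurred in 26 of 287 windows of members that rose (9.06%) and in 1554 of 15418 of all genes (10.1%). TGANTCA, the AP-1 core, whose reverse complement matches the same letters, occurred in 9 of those 287 (3.14%) and in 776 of 15418 (5.03%).

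Levels are given as scaled reads per kb of coding span, which are the reads of a gene multiplied by the authors' factor for that library and divided by the span, so that genes and libraries can be compared. Values follow the order G1 clone 1, G1 clone 7, S clone 1, S clone 7 and G2 clone 1 at day 0, then G1 clone 1, G1 clone 7, S clone 1 and G2 clone 1 at day 28. Library totals ran from 8.83 M to 109 M reads, and the shallowest was day 0 G1 of clone 7, in which 1 read is worth 12.9 scaled reads. Differences between days are log2 differences on the log2(value + 1) scale, with phase as a term, tested by limma with Benjamini-Hochberg adjustment over all 12403 genes past the filter on low values. Of the members, 437 passed that filter and 174 did not. Of those 437, 90 were below the filter's level in their day 0 mean and 1 in its day 28 mean. In sorted bulk samples a smaller share of cells with a transcript and less of it per cell cannot be told apart.

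The leading genes of the class changed between days. CMSS1, the human counterpart of a yeast protein of the small ribosomal subunit, had the most reads of any member in 4 of the 5 day 0 libraries. ARL15, MAGI1 and PARD3 held that place at day 28, the last in both S and G2. The 10 members with most reads took 17.1 to 23.7% of the class's reads at day 0 and 11.1 to 17.3% at day 28. Per kb, the highest members at day 0 included CMSS1, SLCO3A1, NEDD4L, WDR70 and SND1. At day 28 they were EXT1, TNS3, UBE2E2, ASAP1, AOPEP and SLCO3A1. EXT1, a polymerase of heparan sulfate, measured 31.2, 38.7, 29.1, 29.4 and 34.8 at day 0 and 182, 134, 87.9 and 105 at day 28. TNS3, a tensin that links integrins to actin, measured 26.0, 34.3, 21.7, 15.6 and 25.9 at day 0 and 174, 86.6, 78.4 and 101 at day 28. UBE2E2, a ubiquitin-conjugating enzyme, measured 11.1, 16.4, 9.47, 8.23 and 15.4 at day 0 and 148, 149, 60.4 and 65.3 at day 28. In all 3 of these genes every day 28 library lay above every day 0 library.

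Among the 437 tested members, 354 rose at day 28, 6 fell and 77 did not pass the threshold, where 28.6% of all genes tested rose and 26.5% fell. Of the 437, 90 had passed the filter without their day 0 mean reaching it, so that a rise was largely fixed by the filter. Among the 347 whose day 0 mean reached it, 267 rose and 6 fell. Of the members that rose, 320 were higher at day 28 in each of the 4 same-phase, same-clone pairs. The 12 largest rises among members with 1 direction in every phase and clone pair were in genes of mixed function. ARL15, a small GTPase of the Arf-like family, measured 0.912, 3.86, 0.937, 1.73 and 2.43 at day 0 and 159, 36.3, 47.4 and 43.3 at day 28. Its log2 difference was 5.03 ± 0.49 (SE; adjusted p = 4.0e-05, limma). SEMA5A, a semaphorin of axon guidance, measured 0.879, 1.11, 0.981, 0.311 and 1.52 at day 0 and 57.4, 38.6, 18.5 and 29.7 at day 28, a difference of 5.12 ± 0.35 (adjusted p = 1.3e-05, limma). Neither gene's days overlapped, and ARL15 in day 28 G1 of clone 1 stood well above the other day 28 libraries.

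CAMK1D, a calcium and calmodulin-dependent kinase, measured 1.69, 1.64, 1.82, 1.34 and 2.37 at day 0 and 36.0, 66.5, 27.1 and 27.3 at day 28 and had the smallest error of the 12 (difference 4.33 ± 0.27, adjusted p = 1.0e-05, limma). FAT3, an atypical cadherin, measured 0.735, 1.03, 0.771, 0.182 and 0.741 at day 0 and 33.2, 10.2, 12.9 and 13.4 at day 28, with its lowest level in day 0 S of clone 7. ZNF804A, a zinc finger protein, had the largest difference of the class, 5.15 ± 0.50, from levels of 0.120, 0.341, 0.0474, 0.0309 and 0.196 at day 0 and 9.99, 6.91, 2.29 and 3.04 at day 28. DGKI, a diacylglycerol kinase, RBMS3, an RNA-binding protein, and NPAS3 and SOX6, both transcription factors, rose by 4.95, 4.88, 4.64 and 4.59 on the log2 scale. PPM1L, a protein phosphatase, NCAM2, a neural adhesion molecule, and MYO3B, an unconventional myosin, rose by 4.46, 4.46 and 4.34. These 12 were chosen for their size, and their levels at day 0 differed more than 10-fold among themselves.

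**Figure D1:**
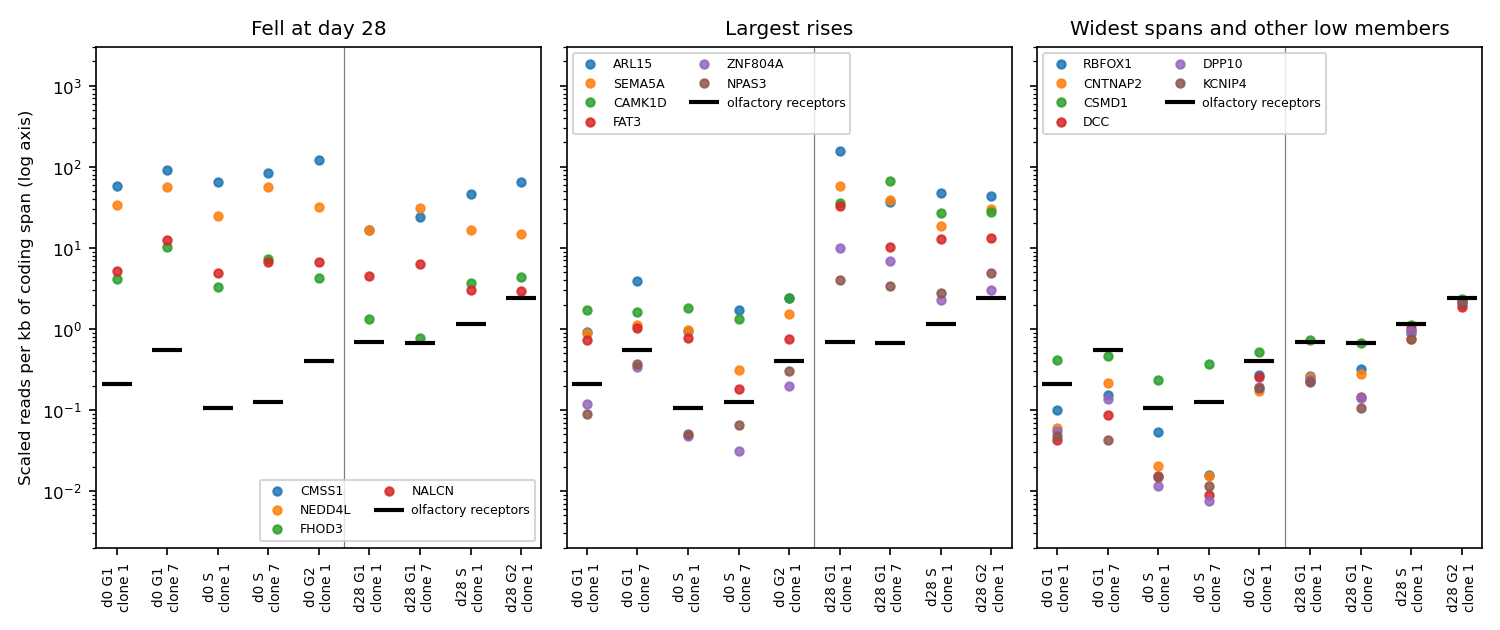
Scaled reads per kb of coding span (log axis) in each of the 9 libraries for 4 members that fell, 6 with the largest rises and 6 with very wide spans or few reads. Each point is 1 library, the black bars are the summed olfactory receptor genes, and a grey line divides day 0 (d0) from day 28 (d28). The points of the right-hand panel lie near the black bars in day 28 S and G2, while those of the middle panel lie above them at day 28.

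A reference for very low levels came from the 402 olfactory receptor genes, short genes taken here to have little expression in these cells. Whether some of them are expressed was not tested. Their summed density was 0.209, 0.556, 0.107, 0.126 and 0.400 at day 0 and 0.697, 0.676, 1.16 and 2.42 at day 28. It rested on 15 to 488 reads a library and was highest in day 28 G2. Of the tested members, 323 exceeded this density in all 4 day 28 libraries, 71 in some of them and 43 in none. These groups were formed from the day 28 levels, so their day 28 differences are descriptions. The 43 members in the last group had a median span of 1110 kb and included RBFOX1, CNTNAP2, CSMD3, DCC, ERBB4 and DPP10. Of them, 38 rose at day 28, with a median difference of 3.00. When the olfactory density of each library was subtracted from every gene, 231 members rose and 12 fell, where 24.5% of all genes rose and 26.0% fell. All 231 of those risers had also risen without subtraction. The 43 could not rise after subtraction, since it sets their day 28 values to 0.

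The 116 members at more than 5 times the olfactory density in every day 28 library formed the other end. Of these, 93 rose and 4 fell, and 91 rose with the density subtracted. Their median level was 5.50, 10.9, 5.65, 6.42 and 7.67 at day 0 and 29.8, 28.8, 17.2 and 21.7 at day 28. The members at or below the olfactory density had a median of 0.0653, 0.213, 0.0339, 0.0200 and 0.193 at day 0 and 0.295, 0.275, 0.877 and 2.14 at day 28. The 174 members below the filter had a median of 0.0529, 0.180, 0.0201, 0.00950 and 0.181 at day 0 and 0.243, 0.259, 0.888 and 2.21 at day 28. The last 2 medians and the olfactory density were all lowest in day 0 S and highest in day 28 G2. The part that such a general level takes in the members with few reads was not tested beyond the subtraction.

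**Figure D2:**
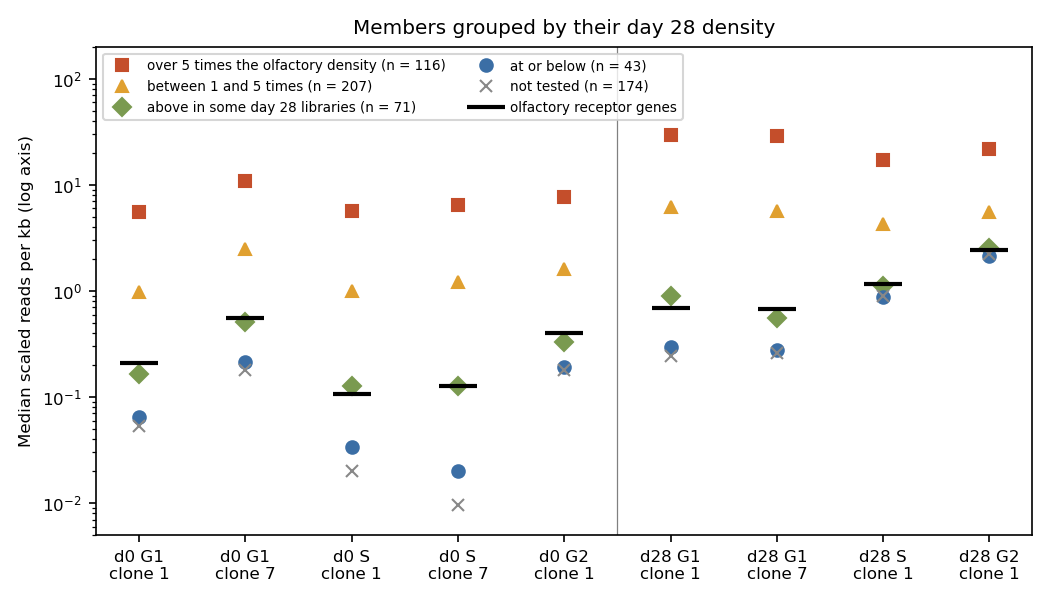
Median scaled reads per kb (log axis) by library for members grouped by their day 28 density relative to the olfactory receptor genes (black bars), with the 174 members below the filter as crosses. The members at or below the olfactory density and those below the filter follow the bars from library to library, and the members at more than 5 times that density stay far above them.

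Most neuronal surface proteins had few reads. Of 34 synaptic and neuronal adhesion genes in the class, 24 were tested, 22 rose and none fell, where 354 of all 437 tested members rose. The median difference was 2.81, against 2.02 over those members and 0.02 over all genes. The median day 0 level of the 24 was 0.162. Members that low could pass the filter only through higher day 28 values, which in part fixes the counts of rises in this list and those below. With the olfactory density subtracted, 4 of the 24 rose and 1 fell. NCAM2 was among those that still rose, at 0.0657, 0.119, 0.0299, 0.0389 and 0.266 at day 0 and 2.07, 2.30, 1.32 and 2.45 at day 28. LRRTM4, a synaptic organiser with leucine-rich repeats, had the highest level of the tested list, a mean of 2.16 at day 0 and 14.8 at day 28, and rose by 2.75. IL1RAPL1, an interleukin receptor relative of synapses, rose by 3.69 from 0.0563 to 0.631, and it exceeded the olfactory density in no day 28 library. TENM2, a teneurin, rose by 4.38 ± 1.10, but its adjusted p was not below the threshold without the day 28 S library (adjusted p = 0.0556, limma) or with subtraction (0.117). Of 18 compact neuronal markers outside the class, 5 were tested, none rose and 3 fell. The summed density of those markers was 8924 to 11214 at day 0 and 4287 to 8646 at day 28, with 1 marker at 0 in every library. Of 11 tested lung epithelial markers, 1 rose and 5 fell, where 28.6% of all genes rose and 26.5% fell. Their median difference was -0.30, and a change of the set was not tested. The summed density of all 12 was 281621 to 426453 at day 0 and 166900 to 285723 at day 28, so the ranges overlapped.

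For comparison with the lists below, 354 of all 437 tested members rose and 6 fell, and 231 rose and 12 fell after subtraction. Over all genes 28.6% rose and 26.5% fell, and 24.5% and 26.0% did so after subtraction. No list was tested against these shares. Axon guidance genes were mostly below the filter, 9 of 15. Of the others 6 of 6 rose, with a median of 2.77, and 4 rose with the olfactory density subtracted. SLIT2, a secreted guidance ligand, went from a mean of 0.311 to 4.94. ROBO1, its receptor, went from 1.47 to 6.99 (difference 2.23 ± 0.21). DCC, the netrin receptor, stayed at or below the olfactory density throughout day 28. Among the cadherins and catenins 8 of 10 rose and 3 did so after subtraction, FAT3 and PCDH7 being the tested members with most reads per kb at day 28. All 5 tested receptor tyrosine phosphatases rose, 3 after subtraction. PTPRG, PTPRM and PTPRK, which had 4.23, 8.88 and 12.5 scaled reads per kb at day 0, rose by 2.66, 1.36 and 0.99, and PTPRT and PTPRN2 were below the olfactory density in all 4 day 28 libraries. Of 4 receptor tyrosine kinases, IGF1R, the insulin-like growth factor receptor, rose by 1.82 ± 0.25 from levels of 5.16, 5.98, 5.99, 2.65 and 7.20 at day 0 and 23.0, 22.6, 13.2 and 20.7 at day 28. EPHA6, an ephrin receptor, rose by 1.99. ERBB4, a relative of EGFR, rose by 3.57 at levels below the olfactory density. ROR1, a Wnt receptor, differed by 0.32 ± 0.34 (adjusted p = 0.440, limma).

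Channels and transmitter receptors included many members below the filter, 17 of 43 and 12 of 23. Of 43 channels and transporters, 26 were tested, 23 rose and 1, NALCN, fell. After subtraction 12 rose and 3, NALCN, KCNQ3 and SLC35F1, fell. The transporters SLC35F3 and SLC39A11 had most reads per kb and rose by 2.0 and 1.49. KCND2 and KCNH8, potassium channel subunits, and CACNB2, a calcium channel subunit, rose by 3.14, 2.83 and 3.17 from day 0 means of 0.293, 0.522 and 0.219. Among the transmitter receptor genes 10 of 11 rose and 5 did so after subtraction. GRIP1, a scaffold of glutamate receptors, was the highest at day 28, at 1.16, 8.81, 1.27, 2.66 and 3.54 at day 0 and 39.1, 30.8, 24.0 and 34.1 at day 28. GPHN, the gephyrin scaffold that also makes the molybdenum cofactor, rose by 1.31 ± 0.32.

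Of the polarity, junction and actin list 17 of 21 rose and 1 fell, and after subtraction 16 rose and 1 fell. MAGI1, a scaffold of tight junctions, measured 2.45, 7.87, 1.64, 2.88 and 3.46 at day 0 and 90.3, 108, 23.0 and 37.8 at day 28. ASAP1, an activator of Arf GTPases at focal adhesions, measured 12.8, 33.8, 13.8, 17.7 and 23.2 at day 0 and 113, 110.4, 62.9 and 66.2 at day 28. In both genes every day 28 library lay above every day 0 library. PARD3B, a polarity protein, and FMNL2, a formin, rose by 3.61 and 3.23. In the dystrophin, spectrin and ankyrin group 11 of 12 rose, 8 after subtraction. NEBL, an actin-binding nebulin relative, rose by 4.01 ± 0.27, DMD, dystrophin, by 2.26 ± 0.26 and DST, a plakin that links filaments to the membrane, by 1.38 ± 0.28. MACF1, another plakin and the exception of that list, is described with the members that did not rise.

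Microtubule and motor proteins rose in 16 of 17 cases, and in 7 after subtraction, against 354 and 231 of all 437 tested members. NAV2, a navigator protein, rose by 3.41 ± 0.22, and CEP128, a centriole protein, by 0.73 ± 0.23. The CEP128 call did not hold without day 0 G1 of clone 1 or without day 28 S. Among kinases and phosphatases 15 of 20 rose, 13 after subtraction, and CDK14 and PRKG1 rose by 2.91 and 3.02 beside CAMK1D and PPM1L. In the group of cyclic nucleotide, lipid and calcium enzymes 9 of 12 rose, and after subtraction 5 rose and 1 fell. GNAQ, a G protein alpha subunit, had the highest density of its risers, at 3.59, 10.1, 3.86, 2.87 and 6.62 at day 0 and 70.2, 60.4, 50.5 and 47.1 at day 28. Membrane traffic genes rose in 21 of 24 cases and in 19 after subtraction. SYT1, a calcium sensor of exocytosis, RIMS2 and DNM3, a dynamin, rose by 3.70, 3.20 and 3.28, and EHBP1, an endocytic adaptor, by 1.29 from a higher level.

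Nuclear members rose in most cases, as did the tested class (354 of 437, and 231 after subtraction). Of 28 tested transcription factors and cofactors 24 rose, 17 after subtraction, and none fell. MAML2, a Notch coactivator, measured 3.95, 27.0, 3.60, 7.30 and 6.88 at day 0 and 133, 113, 44.0 and 45.0 at day 28. CUX1, a homeodomain protein, rose by 2.50 ± 0.22 and NR3C2, the mineralocorticoid receptor, by 3.45 ± 0.60, a call that was lost with the olfactory density subtracted (adjusted p = 0.231, limma). All 8 RNA-binding proteins rose, and 6 did so after subtraction. Among them DIS3L2, an exonuclease, rose by 1.27 and EIF4G3, a translation initiation factor, by 0.87. Chromatin regulators rose in 6 of 7 cases and in 6 after subtraction: SETBP1, AUTS2, MACROD2, KDM4C, SMYD3 and ARID1B rose by 3.43, 3.18, 2.92, 1.63, 1.62 and 1.47. Genes of DNA repair, replication and the cell cycle rose in 9 of 11 cases with a median of 1.26, and in 8 after subtraction. RAD51B, a recombinase paralogue, rose by 2.22 and DIAPH3, a formin of the division ring, by 1.26, the latter call being lost without day 28 S. All 3 members of the Hippo list, RBMS3, STK3 and LIMCH1, rose, and STK3, a Hippo kinase, and LIMCH1 did so by 0.65 and 0.62. Neither of these smaller calls held without the day 28 S library.

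Matrix genes rose in 12 of 16 cases and in 4 after subtraction, against 354 and 231 of all 437 tested members. FRAS1, a basement membrane protein, rose by 2.91 ± 0.26, and ADAMTS12, a protease, differed by 0.30 ± 0.29 (adjusted p = 0.402, limma). Glycan enzymes rose in 7 of 9 cases, and after subtraction 4 rose and 1 fell. Large endocytic and complement-repeat receptors rose in 6 of 8 cases and in 1 after subtraction, that being LRP1B, at 2.73. In the list of metabolic and mitochondrial proteins 17 of 23 rose and 1 fell, and after subtraction 13 rose and 1 fell. The fall was in CMSS1, which the list holds although it is described above as a counterpart of a ribosomal subunit protein. ALDH1A2, a retinoic acid synthase, rose by 3.56 ± 0.43, and ADK, adenosine kinase, differed by 0.22 ± 0.21. In the ubiquitin list 5 of 6 rose and NEDD4L fell, and after subtraction 4 rose and 1 fell. Common fragile site genes, a list that overlaps several of the others, rose in 35 of 37 cases with a median of 2.75. After subtraction 18 of them rose and 1 fell. LPP and PTPRG were the fragile site genes with most reads per kb at day 28, and LPP, a focal adhesion protein, rose by 2.80 ± 0.38.

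The same functional lists also hold genes with shorter spans. Shorter transcription factors rose in 64 of 94 with a median of 1.39, against 2.52. Shorter metabolic genes rose in 22 and fell in 26 of 90, with a median of -0.09, against 2.06. In the Hippo list the 3 members had a median of 0.65 and the shorter genes 0.80. The lists are not complete, and these counts are descriptions. At the boundary of the class, the members KIF16B, PLCH1 and CHST11 with spans of 300.023, 300.357 and 300.392 kb differed by 0.89, 1.46 and 0.27. The genes just outside it, MGMT, HDAC4 and KLF12 with 299.782, 299.603 and 299.533 kb, differed by -0.25, 1.15 and 2.11.

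**Figure D3:**
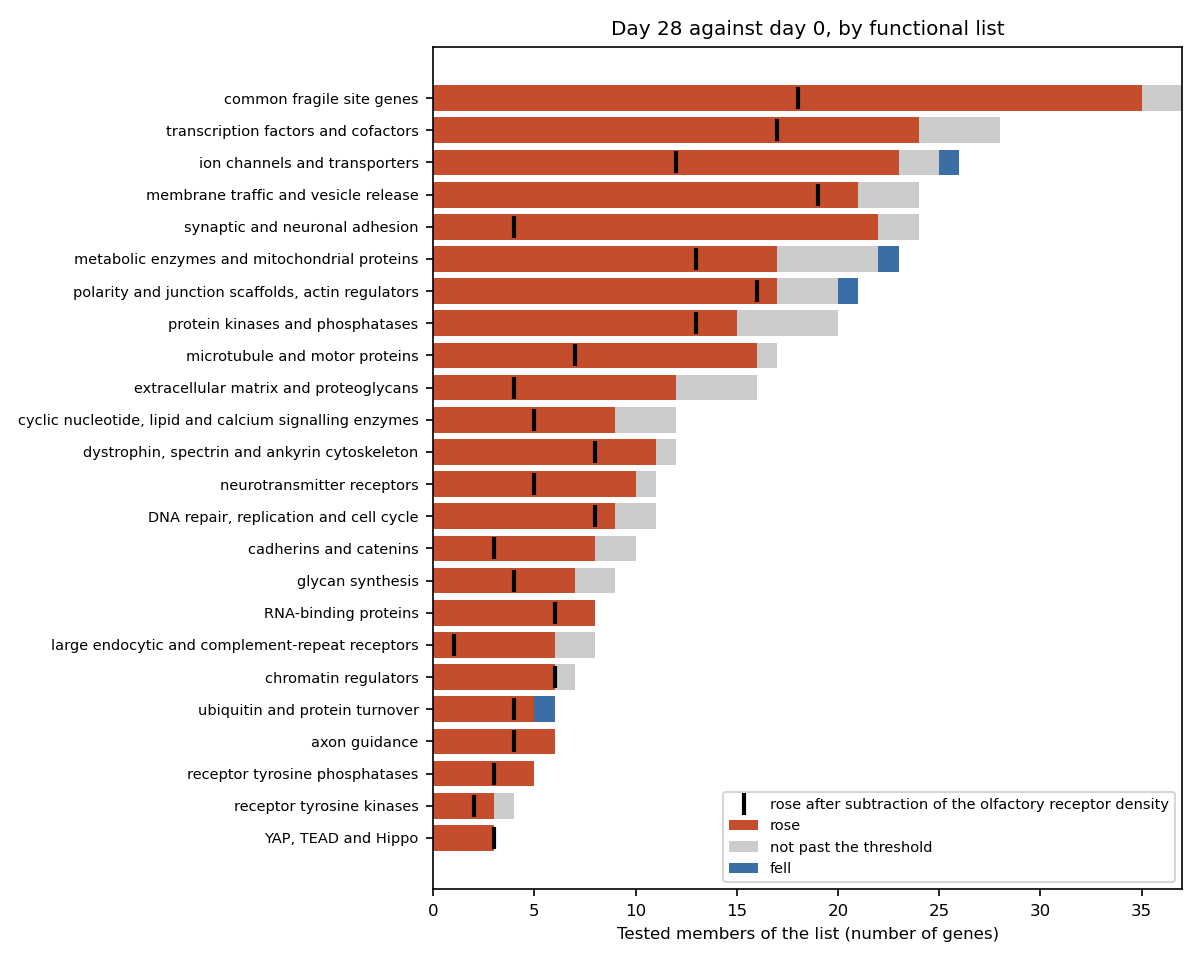
Number of tested members in each functional list shown that rose (orange), did not pass the threshold (grey) or fell (blue) at day 28 against day 0, with a black tick at the number that rose after the olfactory receptor density was subtracted. The tick lies far left of the orange edge for synaptic adhesion (4 against 22) and close to it for membrane traffic (19 against 21).

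The 83 tested members that did not rise had a median level of 5.74 at day 0 and 6.13 at day 28, against 1.15 and 5.67 in those that rose. A member low at day 0 could pass the filter only through higher day 28 values, so this day 0 contrast is in part fixed by the filter. Of the 354 that rose, 267 had a day 0 mean that reached the filter's level. The median span of the 83 was 405 kb against 467 kb. CMSS1 (chr3:99817980-100178388, plus strand, GRCh38) had the highest day 0 mean of the class and fell, from levels of 57.6, 91.4, 64.6, 83.1 and 122 at day 0 and 16.5, 23.9, 46.7 and 64.8 at day 28. Its difference was -1.27 ± 0.26 (adjusted p = 0.00197, limma), the days overlapped because day 28 G2 lay above 2 day 0 libraries, and the lowest values were those of day 28 G1. NEDD4L (chr18:58044661-58396269, plus strand), a ubiquitin ligase of epithelial sodium channels, measured 33.7, 57.0, 24.5, 55.6 and 31.8 at day 0 and 16.6, 30.7, 16.8 and 14.6 at day 28. It fell by 1.05 on the log2 scale (SE 0.28, adjusted p = 0.00880, limma), and day 28 G1 of clone 7 lay within the day 0 range.

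FHOD3 (chr18:36297836-36779530, plus strand), a formin of the sarcomere, measured 4.09, 10.2, 3.33, 7.20 and 4.29 at day 0 and 1.33, 0.779, 3.65 and 4.34 at day 28. It fell by 1.36 (SE 0.49, adjusted p = 0.0351, limma), and the low values were those of G1, since day 28 S and G2 lay within the day 0 range. NALCN (chr13:101055295-101399126, minus strand), a sodium leak channel, measured 5.12, 12.4, 4.83, 6.62 and 6.70 at day 0 and 4.56, 6.39, 3.02 and 2.93 at day 28, a difference of -0.81 ± 0.29 (adjusted p = 0.0326, limma). The FHOD3 and NALCN calls were lost in several fits that left out 1 library, with the largest adjusted p at 0.0970 for FHOD3 without day 28 G1 of clone 1 and 0.114 for NALCN without day 0 G2. The CMSS1 and NEDD4L calls held in every such fit.

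Another member that fell, ENSG00000249209, is a readthrough locus over shorter genes of the same strand. ATP5PO, a subunit of the mitochondrial ATP synthase, took 85.3% of its reads at day 0 and 63.4% at day 28, and ATP5PO itself fell by 1.53 on the log2 scale. In all, 12 members had at least 20% of their reads in a nested gene of the same strand, 11 of them were tested, and 7 of these did not rise. In GALNT18, CSNK2A3, a casein kinase copy in an intron, took 96.3% of the reads at day 0 and 23.0% at day 28. In ENTREP2, NSMCE3 took 54.7% and 21.1%. Without the 12 mixed members, 350 rose, 5 fell and 71 did not pass among 426.

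The 77 members that did not pass the threshold had 58 differences above 0 and 19 below. PDE3A, a phosphodiesterase of cyclic nucleotides, had the lowest, -1.02 ± 0.44 (adjusted p = 0.0663, limma), from 2.08, 4.31, 2.15, 1.80 and 3.29 at day 0 and 0.986, 0.516, 1.71 and 3.24 at day 28. SH3KBP1, an adaptor of receptor endocytosis, LSAMP, a neuronal adhesion protein, PRKAG2, a subunit of AMP-activated kinase, and DNER, a Notch-like surface protein, differed by -0.69, -0.53, -0.45 and -0.44. A Y-linked protocadherin with a near-identical X copy is left out of this order. The members with many reads in this group included WDR70, SND1 and MACF1. WDR70, a WD repeat protein, measured 32.6, 40.3, 33.6, 36.9 and 46.9 at day 0 and 43.7, 46.6, 34.4 and 44.6 at day 28, with overlapping days and a difference of 0.12 ± 0.17. SND1, a nuclease of RNA silencing, and MACF1 differed by -0.26 ± 0.20 and -0.08 ± 0.19.

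Reads could be divided along the span in the 354 members for which rows of the table share 1 end of the span, since whole reads could be recovered. The 5′ part rose in 305 of 354 and fell in 1, where 30.2% of 5′ parts of all genes rose and 21.5% fell. The 3′ part rose in 281 of 353 and fell in 3, where 29.5% of 3′ parts of all genes rose and 20.4% fell. The log2 ratio of the 5′ to the 3′ part rose in 65 of 353 members and fell in 12, where 12.4% and 8.15% of all genes with both parts did, with a median change of 0.37 in members and -0.12 in shorter genes. The number of members whose ratio rose ran from 19 to 87 when 1 library was left out, the fewest without day 28 S and the most without day 0 G1 of clone 7, and the number whose ratio fell from 4 to 21, without the same libraries, with 7, 5 and 6 without day 0 G1 of clone 1 and day 28 G1 of clone 1 or 7. It was 28 to 43 without day 0 G1 of clone 1, day 0 S of clone 1, day 0 G2, day 28 G1 of either clone or day 28 G2 (34, 34, 43, 32, 28 and 43). Exons covered a median of 0.65% of the 5′ parts and 1.60% of the 3′ parts.

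Of the 43 divided members whose whole span did not pass the threshold, 18 had a 5′ part that rose and 4 a 3′ part that rose. Over all genes 30.2% of 5′ parts and 29.5% of 3′ parts rose. The 43 were selected on the reads of both parts together, which limits how many of their parts could rise, so the counts are descriptions. The genes named in this paragraph and the next were in part picked after their values were seen. In NEDD4L the 152 kb 5′ part measured 2.36, 3.63, 1.05, 1.65 and 2.42 at day 0 and 9.33, 7.67, 10.5 and 10.7 at day 28. The 199 kb 3′ part measured 57.6, 97.7, 42.5, 96.8 and 54.2 at day 0 and 22.1, 48.3, 21.6 and 17.6 at day 28. The 5′ part therefore rose, by 2.12 (adjusted p = 4.5e-04, limma), in the gene whose 3′ part fell by 1.41 (adjusted p = 0.00241, limma), with every day 28 library above every day 0 library in the first.

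SH3KBP1, MACF1, ADK, CHST11 and RUNX2, a runt transcription factor, each had a 5′ part that rose, by 1.59, 2.41, 1.33, 1.15 and 2.03. Their 3′ parts differed by -1.15, -0.36, -0.13, -0.09 and -1.01, and of these only the fall in SH3KBP1 passed the threshold (adjusted p = 0.0273, limma). In FHOD3 the 3′ part fell by 1.98 and the 5′ part differed by 1.07 (adjusted p = 0.147, limma). The largest change of ratio was in SHROOM3, an actin-binding protein of epithelial shape, whose 5′ part measured 0.100, 0.506, 0.129, 0.206 and 0.315 at day 0 and 27.4, 34.6, 17.1 and 16.8 at day 28 and whose 3′ part measured 26.3, 29.4, 23.6, 21.0 and 19.6 at day 0 and 53.7, 63.9, 46.7 and 54.1 at day 28. The opposite order was seen in STX8, a syntaxin of endosomes, whose 3′ part rose by 1.67 while its 5′ part differed by -0.43 (adjusted p = 0.169, limma). In NALCN, unlike the other members that fell and could be divided, the 5′ part fell, by 1.16, and the 3′ part differed by -0.18. Leaving out 1 library at a time, the ratio change kept its call in NEDD4L, FHOD3, SH3KBP1, ADK, RUNX2, SHROOM3 and STX8 in every fit. It lost the call in at least 1 fit in MACF1 and CHST11, with largest adjusted p of 0.0670 and 0.0547.

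**Figure D4:**
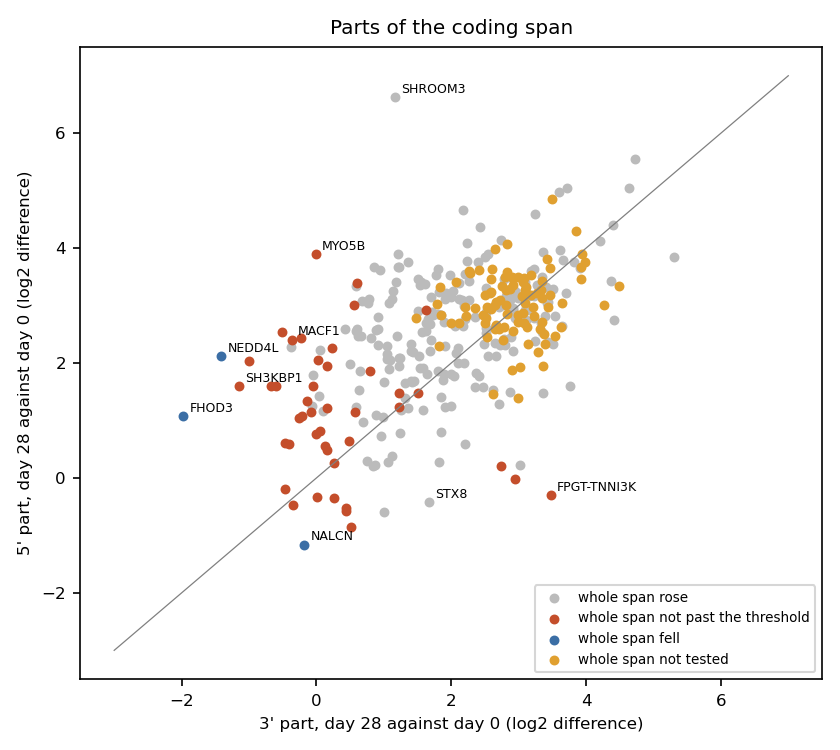
Log2 difference between day 28 and day 0 in the 5′ part of the coding span (vertical) against the 3′ part (horizontal), 1 point for each of 353 members with both parts, coloured by the call of the whole span. The grey line marks equal change, and most members whose whole span did not pass the threshold lie above it, MACF1 and SH3KBP1 among them.

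Within G1, the only phase with 2 libraries on both days, 227 members were higher at day 28 and 5 lower, where 19.9% of all genes were higher and 19.1% lower. The higher count fell to 113 without day 28 G1 of clone 1 and to 133 without that of clone 7. The lower count fell to 3 without day 0 G1 of clone 7 and to 2 without day 28 G1 of clone 7. The 5 lower members were FHOD3, CMSS1, PDE3A, LSAMP and the readthrough locus, and their G1 differences were -2.66, -1.87, -2.06, -1.69 and -1.21. LSAMP in G1 went from 1.07 and 2.71 at day 0 to 0.607 and 0.461 at day 28, below the olfactory density of those libraries. In S, with 1 library at day 28, 144 members were higher and none lower, where 4.39% of all genes were higher and 2.89% lower. With clone as a replicate block the higher count in S was 248, where 9.13% of all genes were higher and 6.5% lower. It was 254 and 251 without day 0 G1 of clone 1 or 7, 46 without day 0 S of clone 1, and 0 without day 0 S of clone 7 or either day 28 G1 library, and 17 with the olfactory density subtracted.

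In G2 there was 1 library on each day and no test: 337 of 437 members were at least 2-fold higher at day 28 and 6 at least 2-fold lower, where 21.9% and 17.3% of all genes were. The median difference of the members was 1.64 in G1, 2.17 in S and 1.94 in G2. Neither direction of the day by phase term passed for any member (limma, 0.0% of all genes in either direction), and the smallest adjusted p was 0.252. The unadjusted p was under 0.05 in 82 of 437 members and in 11.1% of all genes (limma). Without day 28 G1 of clone 1, 1 member was lower (7 of all genes), and with the olfactory density subtracted 2 were (3 of all genes). Between S and G1 at day 0 no member passed either (0.0% of all genes). There the unadjusted p was under 0.05 in 71 of 437 members and in 3.60% of all genes (limma). The median difference of the members between S and G1 at day 0 was -0.57, and it was -0.02 without the shallow day 0 G1 library of clone 7. Between G2 and S over both days no member passed (0.0% of all genes), and the median was 0.57. The unadjusted p was under 0.05 in 83 of 437 members and in 8.64% of all genes (limma). With the olfactory density subtracted, 11 members were higher and 5 lower in G2 than in S, where 18 and 50 of all 12403 genes were. In simulated data the day by phase term recovered 1% of true log2 differences of 1 and 31% of those of 2. S against G1 at day 0 recovered 5% and 66%, and G2 against S 8% and 72%. The lack of calls in these comparisons therefore does not show that members kept the same level or response between phases.

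Among the treated cells, 6 members were higher in S and G2 than in G1 and 6 were lower, where 2.89% and 1.85% of all genes were. The higher were KCNIP4, a partner of potassium channels, ADGRV1, an adhesion receptor of hair cells, ROBO2, CFAP20DC, NRG1, the neuregulin ligand of ERBB receptors, and CMSS1, the last 2 named to complete the count. Their differences were 3.04, 2.54, 2.40, 1.93, 1.89 and 1.47. ADGRV1 measured 0.856, 1.89, 1.61, 1.53 and 1.69 at day 0 and 1.00, 0.722, 5.09 and 4.79 at day 28, so that the day 28 S and G2 libraries lay above the other 7. KCNIP4 and ROBO2 were below the olfactory density in all 4 day 28 libraries, and with that density subtracted both were set to 0. The lower members were INPP4B, a phosphoinositide phosphatase, SSBP2, FRAS1, PTPRK, TBC1D22A and UBE2E2, with -2.62, -1.92, -1.40, -1.38, -1.37 and -1.24. INPP4B had the smallest adjusted p of the 12 (0.0195, limma), from 19.1, 19.5, 13.8, 15.8 and 16.4 at day 0 and 27.5, 72.1, 8.10 and 6.48 at day 28, with both day 28 G1 libraries highest and day 28 S and G2 lowest of all 9. All 6 lower members stayed lower with an adjusted p under 0.05 after subtraction.

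These counts rest on few libraries. The higher and lower counts were 25 and 15 without day 0 G1 of clone 1, and 24 and 14 without that of clone 7. Over all genes they were then 415 and 333, and 413 and 326. Without day 0 S of clone 1 they were 2 and 2, and without that of clone 7 they were 3 and 2. Over all genes they were then 230 and 129, and 230 and 127. Without either day 28 G1 library the higher calls were lost, and without that of clone 7 the lower calls were lost too. With clone as a replicate block 11 members were higher and 5 lower, where 493 and 313 of all 12403 genes were. SSBP2 and UBE2E2 did not pass with the block (adjusted p = 0.0534 and 0.0513, limma). By level, the members at more than 5 times the olfactory density were higher in S and G2 in 30 of 116 cases, with a median of -0.48. The members at or below it were higher in 43 of 43 cases, with a median of 2.22. The olfactory density itself was 0.697 and 0.676 in the day 28 G1 libraries, 1.16 in S and 2.42 in G2. These groups were formed from the same day 28 libraries, and the upper bound of the last group was higher in S and G2. Its direction is therefore in part set by the grouping, and the counts by level are descriptions.

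**Figure D5:**
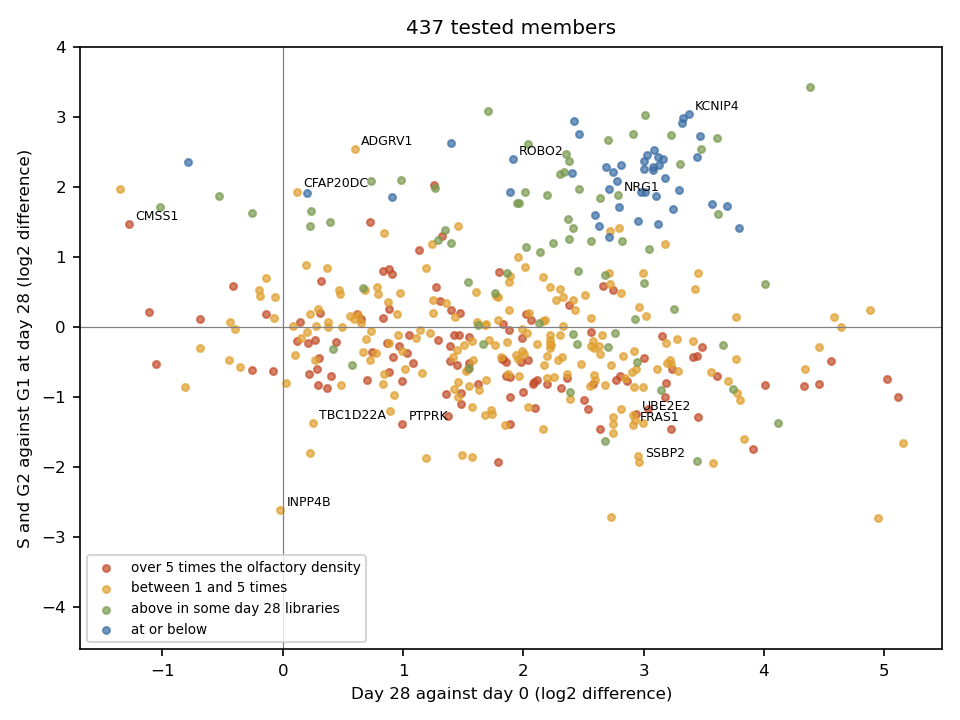
Log2 difference of S and G2 against G1 at day 28 (vertical) against the difference of day 28 from day 0 (horizontal) for the 437 tested members, coloured by day 28 density relative to the olfactory receptor genes; the 12 members past the threshold of the phase comparison are named. Blue points, at or below the olfactory density, all lie above 0 on the vertical axis, which is in part set by the grouping, since it used the same day 28 libraries.

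Clones 1 and 7 differed in 3 members, all higher in clone 7, where 0.387% of all genes were higher and 0.226% lower. SNX29, a sorting nexin, measured 0.355, 2.37, 0.266, 0.821 and 0.662 at day 0 and 2.97, 7.44, 2.17 and 4.02 at day 28. Its clone difference was 1.79 ± 0.34 (adjusted p = 0.0490, limma), and the 3 matched pairs of day 0 G1, day 0 S and day 28 G1 gave 2.73, 1.62 and 1.32. PCSK5, a proprotein convertase, measured 1.61, 5.81, 1.36, 3.15 and 1.81 at day 0 and 9.33, 22.0, 3.93 and 4.00 at day 28, a difference of 1.47 ± 0.28, and SH3KBP1 measured 7.90, 14.1, 5.34, 18.2 and 6.28 at day 0 and 4.12, 9.98, 4.81 and 5.62 at day 28, a difference of 1.27 ± 0.24. In each of the 3 genes clone 7 was higher in all 3 pairs. No call held in every fit that left out 1 library. Without any one of day 0 G1 of clone 1, day 0 S of clone 1 or 7 or day 0 G2, 0 members were higher. The same held without day 28 G1 of clone 1, day 28 S or day 28 G2. In these fits 6 to 24 of all genes were higher. Without day 28 G1 of clone 7, 22 members were higher and 1 lower, where 194 and 138 of all genes were. Without day 0 G1 of clone 7, 4 members were lower, where 107 of all genes were. Over the 437 members the median clone difference was 1.07 in day 0 G1, where the clone 7 library is the shallow one, 0.16 in day 0 S and -0.08 in day 28 G1. Those medians over all genes were 0.11, 0.02 and -0.03.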

How the data were processed

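The authors deposited 1 table of log2 values per coding transcript for the 9 libraries, which per the submitters' processing notes rest on GRCh38, HISAT2 2.1.0 and DESeq2 (version and role not given). The annotation release is not given in the sources used here. The deposited log2 values proved to be whole reads over the coding span, introns included, times 1 factor per library, with 0.9 reads entered where there was none. Recovered reads were whole in 100% of the values checked in every library (tolerance 0.05 reads). For each of 20435 genes the transcript with the highest mean was kept, and spans over 300 kb formed the class.

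Tests used limma 3.58.1 in R 4.3.3 (trend in the prior variance) on log2(value + 1), with Benjamini-Hochberg adjustment at 0.05 over 12403 genes. The filter was a mean log2(value + 1) over the 9 libraries of at least 7.01, the log2 of the scaled value of 10 reads in the shallowest library. High values in the day 28 libraries could thus carry a gene past it. The comparison of days held phase as a term, the day by phase and clone terms were added to that model, and the other comparisons were contrasts over the groups of day and phase. A count test was an alternative only, as voom on the recovered reads. The labels name the clone of every library, and over all genes the deviations of same-clone libraries correlated in all 3 pairs of groups (0.651, 0.114 and 0.295). Clone as a replicate block was therefore an alternative for each comparison. Other alternatives were scaling, filters, pseudocounts, a wider row per gene, leaving out each library, and subtraction of the olfactory receptor density times the span. Reads of the 5′ and 3′ parts are those of a wider row minus those of a narrower row that shares 1 end.

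Members were named by size of change, level and span: every member that fell, the 5 lowest that did not pass, the 12 largest rises, up to 6 in each functional list, up to 4 each way in each other comparison, the widest spans, those nearest 300 kb and the 6 highest at each day. The members and the lists were chosen with earlier results of these data known. Promoter windows are from RefSeq (GRCh38.p14), matched by symbol for 491 members. Some named members and 1 functional list are not reported here. The test scripts were tested on simulated data.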

Additional observations from a re-analysis of the deposited data

Results flagged for a closer look

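FAT3 in day 0 S of clone 7 had a log2 value of 6.63, set apart below the other 4 day 0 libraries. It was the 1 such sample among 50 groups examined, and chance gives about 1 in 20.

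In INPP4B every G1 pair was higher at day 28 and the S and G2 pairs were lower, with a day by phase term of -2.27 on the log2 scale. In CFAP20DC the G1 pairs were lower at day 28 and the S and G2 pairs higher, with a term of 1.78. Neither term passed the threshold in limma, and the opposite directions themselves were not tested.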

How the results depend on the processing

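With the olfactory density subtracted, members higher and lower numbered 231 and 12 between days, 17 and 3 in S, 14 and 26 for S and G2 against G1 at day 28, and 11 and 5 for G2 against S. Over all 12403 genes these counts were 3039 and 3225, 46 and 72, 313 and 301, and 18 and 50, in the same order. There was 1 member higher in S at day 0, 2 were lower for the day by phase term and 0 were higher in clone 7. Of the 354 members that rose, 12 had a difference between days below 0 after subtraction. ROBO2 and CSMD1 were among them, at -0.20 and -5.02. With clone as a replicate block, 248 members were higher in S and 11 in S and G2 at day 28. Over all genes these counts were 1132 and 493. No other member count of a comparison moved by more than 1.5 times. For clones, the 3 matched pairs gave 0 members higher, where 8 of all genes were. Day 0 alone gave 18 higher and 1 lower, where 185 and 131 of all genes were. Day 28 alone holds 1 clone 7 library, and the median difference of the members there was -0.12. Among the 231 members with spans over 500 kb, 157 were higher and 0 lower between days. The 231 include members below the filter, so 157 is not a share of tested members.

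Leaving out 1 library gave 304 to 366 higher and 3 to 7 lower between days, the 3 without day 28 G1 of clone 1. In G1 it gave 113 to 285 higher and 2 to 6 lower, in S 0 to 254 higher, and for S and G2 against G1 0 to 25 higher and 0 to 15 lower. For the day by phase term it gave 0 to 1 lower, and for clones 0 to 22 higher and 0 to 4 lower. The causes were not tested. Of 130 named members past the threshold between days, 84 stayed past it under all 21 settings, 39 lost it with subtraction and 15 without day 28 S. PDE3A passed with median-of-ratios scaling (adjusted p = 0.0398, limma). G2, and S at day 28, rest on 1 library each, and the shallow day 0 G1 library of clone 7 limits members with few reads.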
